A study of Mus musculus with 8 samples.

Results

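Transcripts of 10 genes for matrix metalloproteinases and their inhibitors were followed in BNP-injected cheek skin: Mmp2, Mmp3, Mmp9, Mmp10, Mmp12, Mmp13, Mmp14, Mmp19, Timp1 and Timp3. They are the 10 rows of the 18901-gene table that carry these symbols. RNA was sequenced from 4 TBX20fl/fl;K14-Cre mice, the conditional knockout, and 4 TBX20fl/fl littermates, the controls. All 8 were 7-week-old females given 10 µg of BNP (B-type natriuretic peptide) intradermally in the cheek, recorded for 30 min and euthanised 5 h later. K14-Cre deletes the floxed Tbx20 exons in keratinocytes, so the other cells of the cheek skin keep the gene. The comparison therefore asks how Tbx20 deletion in keratinocytes bears on these transcripts in whole BNP-injected skin. It does not show the effect of BNP itself, since no vehicle-injected skin was analysed here.

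Matrix metalloproteinases (MMPs) are zinc-dependent endopeptidases that are made as inactive proenzymes and cut collagens, elastin, other matrix proteins and many cytokines after a propeptide is removed. The tissue inhibitors of metalloproteinases (TIMPs) bind the active site of the mature enzymes. In skin, fibroblasts, keratinocytes, macrophages and neutrophils each make part of the family, and MMPs are best known there from wound repair, inflammation and matrix turnover. MMP-3 was among the secreted proteins the study examined in keratinocyte cultures, which gives the family its interest here. The transcripts below come from whole skin, not from those cultures.

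Mmp3, Mmp10, Mmp12 and Mmp13 lie on the forward strand of chromosome 9, in a cluster of MMP genes that also holds Mmp1a, Mmp1b, Mmp7, Mmp8, Mmp20 and Mmp27. On GRCm38, Mmp13 spans chr9:7272514-7283333, Mmp12 chr9:7344397-7360461, Mmp3 chr9:7445822-7455975 and Mmp10 chr9:7502342-7510242. The other genes lie elsewhere, Mmp2 on chromosome 8, Mmp9 on chromosome 2, Mmp14 on chromosome 14, Mmp19 and Timp3 on chromosome 10 and Timp1 on the X chromosome. RefSeq promoters (GRCm38.p6, 250 bases before to 50 bases after the start site) were matched for 7 of the 10 genes, and Mmp2, Mmp9 and Mmp19 were not matched. Each of the 4 chromosome 9 genes had an AP-1 motif (TGANTCA, searched on both strands) in a matched promoter, against 7.81% of all 32851 promoters. The stretches from 120 bases before the start site to the base before it are shown because they hold that shared motif. AP-1 motifs and TATA boxes (TATAAA, given strand) are in capitals. For Mmp12, which has 2 matched start sites, the second is shown.
Mmp3, chr9:7445702-7445821, + strand: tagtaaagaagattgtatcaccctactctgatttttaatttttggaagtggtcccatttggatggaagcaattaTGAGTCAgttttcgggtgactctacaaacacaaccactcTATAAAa
Mmp10, chr9:7502222-7502341, + strand: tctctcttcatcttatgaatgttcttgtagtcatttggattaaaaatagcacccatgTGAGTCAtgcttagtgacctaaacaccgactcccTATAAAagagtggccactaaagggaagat
Mmp12, chr9:7347254-7347373, + strand: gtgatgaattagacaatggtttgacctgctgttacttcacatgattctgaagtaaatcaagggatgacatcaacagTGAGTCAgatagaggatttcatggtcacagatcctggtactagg
Mmp13, chr9:7272394-7272513, + strand: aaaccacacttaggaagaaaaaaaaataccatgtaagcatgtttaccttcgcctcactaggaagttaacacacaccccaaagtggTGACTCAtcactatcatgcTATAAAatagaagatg
Counted from the start site, the AP-1 motif began at -46 in Mmp3, -63 in Mmp10, -44 in Mmp12 and -35 in Mmp13. A TATA box lay in the same 4 windows, at -7, -29, 5 and -16 respectively, against 8.32% of all promoters. The AP-1 and TATA letters were not in the windows of Mmp14, Timp1, Timp3 or the first Mmp12 start site. The T-box motif AGGTGTGA (both strands) was in none of the matched windows of the 7 genes, against 1.28% of all promoters. These matches describe the letters in the windows and not binding.

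Before the values, the libraries and labels were checked. Totals of the estimated counts were 16056282 to 19880654 per mouse. Tbx20 itself had 0 to 2 counts in the knockout and 0 to 3 in the control mice, at or under the 3 counts taken as the detection floor, so the deletion was not detectable at this depth. All 11 keratinocyte and all 10 fibroblast markers were detected, as the labelled tissue, skin, would have them. Control mouse 2 stood apart. Its Spearman correlation with each other mouse had a median of 0.840, while that of the remaining mice was 0.956 to 0.984, and its deviation from the mean of the mice ran downwards with transcript length (Spearman correlation -0.78 over 13157 genes). Control mouse 3 also ran downwards (-0.35), while the 4 knockout mice ran upwards (0.26 to 0.62), as did control mice 1 and 4 (0.46 and 0.43), so the length trend is partly aligned with genotype. FPKM, a read count scaled by transcript length and library size, does not undo that trend, so values without control mouse 2, or with the trend removed, are given beside the results that they move most. Since the tissue is a mixture, fewer cells of a type and less RNA per cell cannot be told apart.

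The most abundant of these transcripts were the inhibitor Timp3, the gelatinase Mmp2 and the stromelysin Mmp3. Compared per length, as mean FPKM over the 8 mice, Timp3 stood at 107.0, Mmp2 at 92.4, Mmp3 at 47.4, Mmp14 at 42.3, Timp1 at 27.1, Mmp19 at 19.2, Mmp12 at 9.01, Mmp9 at 4.93, Mmp13 at 3.92 and Mmp10 at 0.451. Among all 27 MMP and TIMP genes in the table only Timp2, at 163.6 FPKM or 29.0% of the family's summed FPKM, was above Timp3. Neighbours in this order often overlapped: across the 8 mice Timp3 ranged from 58.4 to 136.0 FPKM and Mmp2 from 50.9 to 147.6, while Mmp3 (28.3 to 63.3) and Mmp14 (16.8 to 60.7) covered much the same range. Mmp10, at 0.10 to 1.57 FPKM, lay below the other 9 genes in every mouse. The plot of family levels shows the spread.

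**Figure D1:**
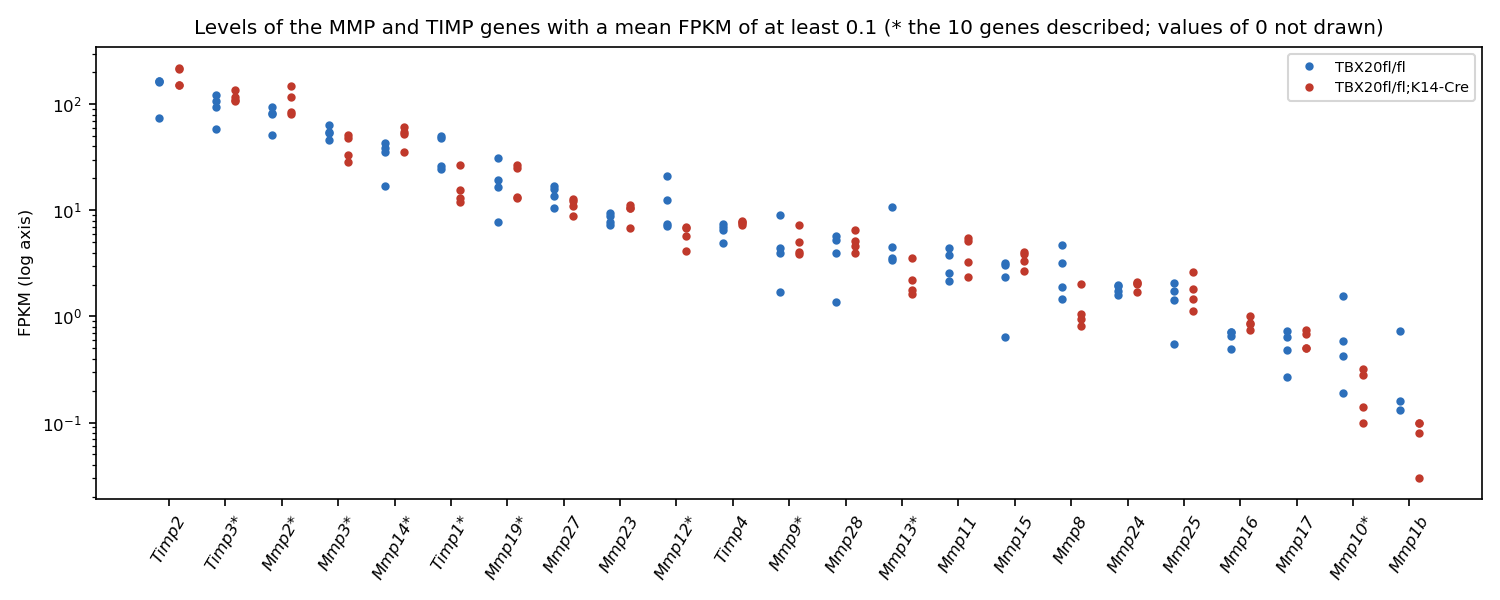
FPKM (log axis) of the MMP and TIMP genes whose mean FPKM reached 0.1, ordered by mean, with 1 point per mouse, blue for the 4 TBX20fl/fl and red for the 4 TBX20fl/fl;K14-Cre mice. Asterisks mark the 10 genes described here, which run from Timp3 with a mean of 107.0 to Mmp10 with a mean of 0.451.

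Comparing genotypes, 5 of the 10 transcripts were lower in the knockout mice at an unadjusted p under 0.05 (Mmp3, Mmp10, Mmp12, Mmp13 and Timp1) and 0 were higher. These are the 4 of the 10 genes that lie in the chromosome 9 cluster, and 1 inhibitor. The 10 genes were chosen with earlier results of these data known, so setting this count beside all genes describes it and tests nothing. The unadjusted p-values come from edgeR's quasi-likelihood test across 17124 genes, of which 5.91% were lower and 2.45% higher at the same limit. After Benjamini-Hochberg adjustment over all of these genes, 0 of the 10 genes and 0% of all genes passed 0.05, although 1431 genes had an unadjusted p under 0.05. The smallest adjusted p in this edgeR test was 0.498. The same 5 genes were lower with the replicate number as a block, where 6.54% of all genes were, and 4 of them, without Mmp3, after removal of the length trend, where 5.17% were. With limma on log2(FPKM + 1) it was 4 as well, there without Mmp10 (unadjusted p = 0.0685). In that limma fit 1046 of 15969 genes were under 0.05 in either direction. DESeq2 passed 10 of the 17124 genes and 0 of the 10 described here. The median log2 fold change (knockout minus control) of the 10 genes was -0.33, and that of all genes tested was 0.03. The median moved to -0.05 among genes whose mean count reached 50, which drops Mmp10, to -0.15 with limma on FPKM, and to -0.20 without knockout mouse 2. The directions below are therefore descriptions of these 8 mice and none is called as a change.

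**Figure D2:**
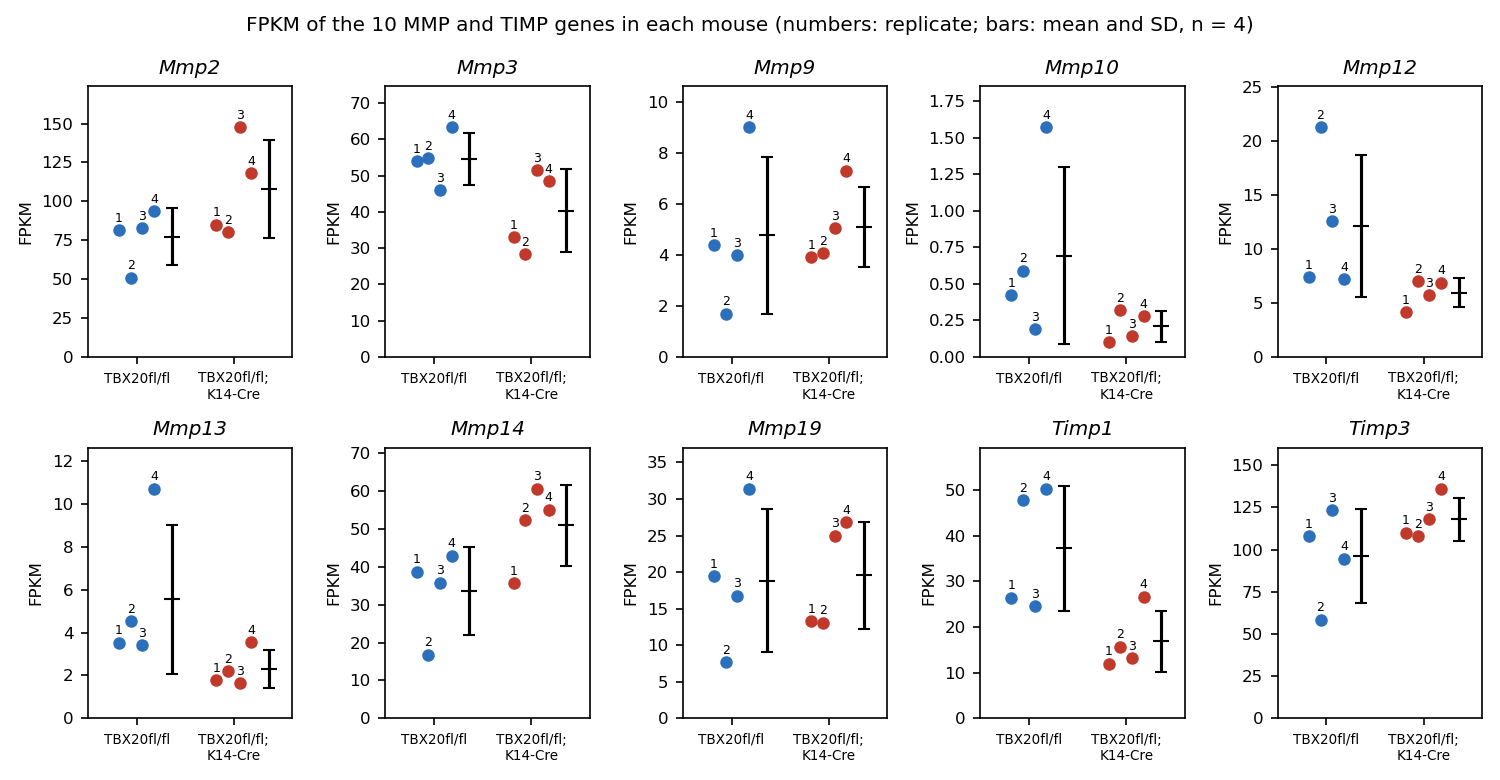
FPKM of each of the 10 genes in each mouse, with the axis starting at 0, replicate numbers beside the points and the mean with SD (n = 4) beside each group. The 2 groups overlap in 9 of the genes, and in Mmp12 the highest knockout value, 7.02, is below the lowest control value, 7.18.

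Among the collagenases and stromelysins, Mmp13, which encodes collagenase-3 and cuts fibrillar collagen, was at 1.78, 2.20, 1.64 and 3.56 FPKM in knockout mice 1 to 4. In control mice 1 to 4 it was at 3.53, 4.53, 3.43 and 10.72 FPKM. Only knockout mouse 4 reached into the control range, and control mouse 4 was far above the rest. The group means were 2.29 ± 0.88 and 5.55 ± 3.48 FPKM (SD, n = 4), the edgeR log2 fold change was -1.43 (SE 0.40, unadjusted p = 0.00580, adjusted p = 0.498), and the exact permutation p of the FPKM means was 0.0857. Each knockout mouse was below the control mouse of the same number (4 of 4 pairs). Without control mouse 4 the log2 fold change was -0.997.

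Mmp3, which encodes stromelysin-1, a protease of proteoglycans, laminin and fibronectin that also activates other pro-MMPs, was the highest of these 4 chromosome 9 genes. It was at 33.0, 28.3, 51.5 and 48.4 FPKM in knockout mice 1 to 4. The controls were at 54.1, 54.8, 45.9 and 63.3 FPKM. Knockout mice 1 and 2 were below every control, while knockout mice 3 and 4 lay above the lowest of them. The means were 40.3 ± 11.4 and 54.5 ± 7.12 FPKM (SD, n = 4), with an edgeR log2 fold change of -0.62 (SE 0.23, unadjusted p = 0.0259) and an exact permutation p of 0.0857. With each mouse's trend over transcript length removed, the log2 fold change was -0.41 and the edgeR unadjusted p was 0.0728, so Mmp3 no longer stood among the genes under 0.05.

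Mmp10, which encodes stromelysin-2, an enzyme of migrating keratinocytes at wound edges, was barely detected. Its rounded counts were 3, 11, 4 and 9 in knockout mice 1 to 4 and 14, 16, 6 and 51 in control mice 1 to 4. Control mouse 4 held most of the control reads. The edgeR log2 fold change was -1.91 with an SE of 0.66 (unadjusted p = 0.0176), and it was -1.22 without control mouse 4. Of the 50-base stretches of Mmp10, 8.37% also occur in Mmp3, so single-end 50-base reads from these stretches cannot be assigned to one of the genes with certainty and the value of Mmp10 is uncertain.

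Mmp12, which encodes macrophage elastase, was the only one of the 10 genes whose FPKM values did not overlap between the groups, a separation that was lost on another scale. Knockout mice 1 to 4 were at 4.11, 7.02, 5.72 and 6.87 FPKM. Control mice 1 to 4 were at 7.39, 21.23, 12.55 and 7.18 FPKM. Control mice 1 and 4 lay just above the knockout mice, and the distance between the means was carried by control mice 2 and 3. Over the 15970 genes whose mean FPKM reached 0.1, 1.92% were lower in the knockout without overlap and 5.45% higher. The means were 5.93 ± 1.35 and 12.1 ± 6.58 FPKM (SD, n = 4), and the exact permutation p was 0.0286, the smallest that 4 against 4 can give (0.388 after adjustment over these genes). The edgeR log2 fold change was -1.34 (SE 0.45, unadjusted p = 0.0152), and it was -0.69 without control mouse 2. As parts in 1e+06 of each mouse's summed FPKM, Mmp12 was at 7.66 to 13.2 in the knockout and 12.8 to 27.5 in the control mice, so the groups overlapped on that scale, where 0.971% of all genes were lower without overlap and 8.75% higher. Its exons share 2.17% of their bases with Mmp1b on the opposite strand.

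The inhibitor Timp1, which encodes a secreted inhibitor of most soluble MMPs that also binds pro-MMP-9, had the smallest unadjusted p of the 10 genes in the main edgeR test, and Mmp13 had the smallest with the replicate block or the length trend removed. Knockout mice 1 to 4 were at 12.0, 15.7, 13.1 and 26.6 FPKM. The control mice were at 26.4, 47.8, 24.5 and 50.3 FPKM. Knockout mouse 4 was level with control mice 1 and 3, and the other knockout mice were below all controls. The means were 16.9 ± 6.68 and 37.3 ± 13.7 FPKM (SD, n = 4), and the edgeR log2 fold change was -1.36 (SE 0.37, unadjusted p = 0.00497, exact permutation p = 0.0857), rank 93 of all genes by p. Timp1 has the shortest transcript of the 10 genes, 0.839 kb from the ratio of counts to FPKM, and removal of the length trend left a log2 fold change of -0.83 (SE 0.32, edgeR unadjusted p = 0.0286). The gene lies inside Syn1 on the opposite strand, but they share 0 exonic bases.

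Timp3, which encodes the inhibitor that is held in the matrix and also blocks ADAM17, was at 109.9, 108.0, 118.0 and 136.0 FPKM in the knockout mice. It was at 107.9, 58.4, 123.3 and 94.5 FPKM in the control mice. Control mice 1, 2 and 4 lay below every knockout mouse, control mouse 1 by a narrow margin, while control mouse 3 was above 3 of them. The log2 fold change of 0.16 (SE 0.18) turned to -0.11 with the length trend removed. Its exons share 21.3% of their bases with Syn3, on the opposite strand, and whether the counting used strand is not given in the sources used here.

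For the gelatinases and the enzyme that activates one of them, no unadjusted p was under 0.05 in edgeR. Mmp2, which encodes gelatinase A of stromal cells, was at 85.0, 80.1, 147.6 and 118.2 FPKM in the knockout mice. The controls were at 81.6, 50.9, 82.8 and 93.5 FPKM. Each knockout mouse was above the control mouse of its number, although knockout mouse 2 was below control mice 1, 3 and 4. The edgeR log2 fold change was 0.34 (SE 0.21, unadjusted p = 0.143), and it was 0.16 without knockout mouse 3.

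Mmp14, which encodes the membrane-bound activator of pro-MMP-2, was at 35.7, 52.4, 60.7 and 55.1 FPKM in the knockout mice and 38.8, 16.8, 35.9 and 43.0 FPKM in the control mice. Knockout mice 2, 3 and 4 were above every control, and knockout mouse 1 was below all controls but control mouse 2. The means were 51.0 ± 10.7 and 33.6 ± 11.6 FPKM (SD, n = 4), with a log2 fold change of 0.48 (SE 0.22, edgeR unadjusted p = 0.0580). DESeq2 gave Mmp14 an unadjusted p of 0.0419 and an adjusted p of 0.431. Without control mouse 2 the edgeR log2 fold change was 0.33.

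For Mmp9, which encodes gelatinase B of neutrophils and other leukocytes, the knockout mice were at 3.92, 4.08, 5.06 and 7.31 FPKM. The control mice were at 4.39, 1.69, 3.98 and 9.01 FPKM. Control mice held both the lowest and the highest value, and the log2 fold change was -0.0022 (SE 0.37). Mmp19, a secreted MMP of many tissues, was at 13.3, 13.1, 25.0 and 26.8 FPKM in the knockout mice and 19.4, 7.72, 16.8 and 31.4 FPKM in the control mice. Its groups were interleaved in the same way, with a log2 fold change of -0.05 (SE 0.35). The directions of Mmp9, Mmp19 and Timp3 turned under other settings. Mmp19 shares 22.3% of its exonic bases with Tmem198b on the opposite strand.

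**Figure D3:**
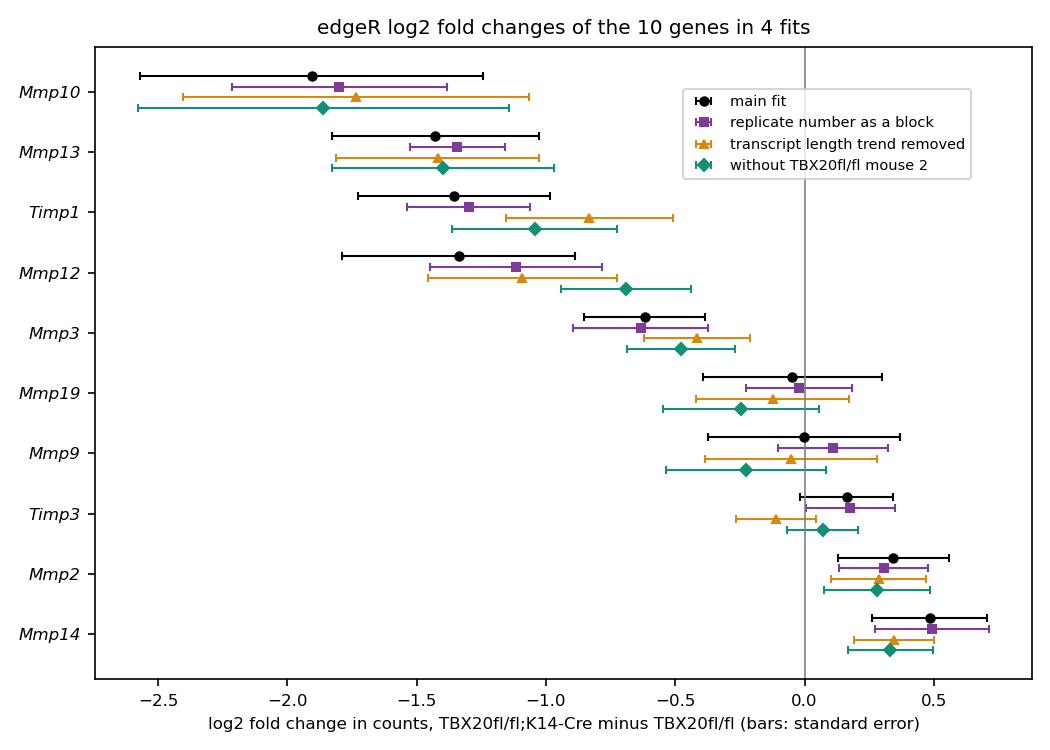
Log2 fold change in counts (TBX20fl/fl;K14-Cre minus TBX20fl/fl) with its standard error for each of the 10 genes in 4 edgeR fits, ordered by the main fit. Mmp10, Mmp13, Timp1, Mmp12 and Mmp3 are below 0 in all 4 fits and Mmp2 and Mmp14 above 0, while Mmp12 is at -1.34 with all mice and at -0.69 without control mouse 2.

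Summed FPKM over sets of these genes, which were formed with their values known, describes the total transcript. Mmp3, Mmp10, Mmp12 and Mmp13 together were at 48.7 ± 11.9 FPKM in the knockout and 72.8 ± 10.6 in the control mice (SD, n = 4), with knockout mice at 37.8 to 59.1 and controls at 62.1 to 82.8. This separation depends on the scale, since the FPKM of all genes summed to 521852 to 772536 per mouse. As parts in 1e+06 of that sum, the 4 genes were at 65.8 to 113.3 in the knockout and 102.5 to 147.8 in the control mice, which overlap. Mmp2 and Mmp14 together were at 158.7 ± 40.0 and 110.8 ± 29.8 FPKM, with overlapping values. Mmp3 and Mmp2 supply most of these sums. The 8 MMPs summed to 232.1 ± 59.1 and 207.2 ± 41.6 FPKM, and Timp1 with Timp3 to 134.8 ± 18.9 and 133.3 ± 19.0 FPKM, so the totals of enzymes and inhibitors differed by less than the spread between mice.

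Across the mice, the genes fell into patterns that the group means hide. Pearson correlations of log2 CPM (counts scaled by library size) over the 8 mice, given as descriptions, share the library and the genotype difference between their points. Mmp13 and Timp1 ran together (r = 0.94, and 0.85 with the group means removed), both highest in control mice 4 and 2 and both highest among the knockout mice in mouse 4. Mmp9 and Mmp19 also ran together (r = 0.92, and 0.93 with the group means removed), highest in control mouse 4 and lowest in control mouse 2. Mmp12 followed another order, highest in control mice 2 and 3, and its correlation with Mmp13 was 0.54, or 0.07 with the group means removed and 0.43 without control mouse 2. With Timp1 that of Mmp12 was 0.77, or 0.54 with the group means removed and 0.53 without control mouse 2.

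**Figure D4:**
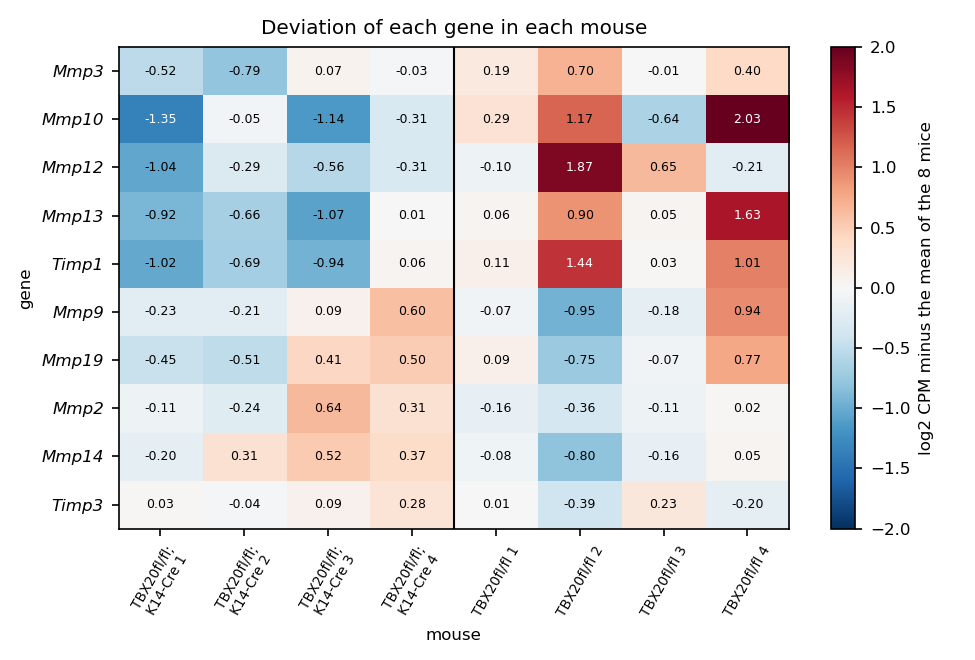
Log2 CPM of each gene in each mouse minus its mean over the 8 mice, in colour from blue (lower) to red (higher) with the value printed, knockout mice left of the line and control mice right of it. Control mouse 2 is at 1.87 for Mmp12 and at -0.95 for Mmp9, and control mouse 4 is at 2.03 for Mmp10 and at 1.63 for Mmp13.

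The genes most like each transcript, by r over the 8 mice among 13298 genes, were named for 9 of the 10, all but Mmp10, whose mean count was under 50. Mmp12 was closest to Stap1 (r = 0.99), Idnk (0.99) and Cd52 (0.99), the last a surface glycoprotein of leukocytes. Mmp13 was closest to Cxcr2 (r = 0.98), a chemokine receptor of neutrophils, Spp1 (0.97), which encodes osteopontin, and Il33 (0.96), an alarmin. Timp1 was closest to Mcemp1 (r = 0.99), Slpi (0.99), a leukocyte protease inhibitor, and S100a9 (0.98), a calprotectin subunit of neutrophils. Cxcr2 and S100a9 are also in the list of neutrophil markers below. Mmp14 was closest to Col6a6 (r = 0.99), Col6a2 (0.99) and Col16a1 (0.98), all collagen chains. Mmp2 was closest to Col4a4 (r = 0.97), a basement membrane collagen chain, Slc9a9 (0.95) and Pltp (0.95). Thus the nearest neighbours of Mmp14 were collagen genes, and those of Mmp13 and Timp1 included genes of neutrophils. Mmp3 was closest to Ebp (r = 0.95), Armc7 (0.95) and Rem1 (0.94), Mmp9 to Cdipt (0.97), Slc2a1 (0.96) and Glis3 (0.96), Mmp19 to Trim47, Shisa5 and Myo1f (1.00, 0.98 and 0.98), and Timp3 to 1700030K09Rik (0.95), Zscan22 (0.93) and Insyn1 (0.93). Each r is the highest of a search through 13298 genes in 8 mice and carries no test.

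Marker lists of the cell types in skin were read from the same fit, and 0 markers passed the adjusted threshold. In that edgeR fit 5.91% of all genes were lower and 2.45% higher at an unadjusted p under 0.05. Of 12 neutrophil markers, 8 were lower in the knockout at an edgeR unadjusted p under 0.05 and 0 higher (median log2 fold change -1.54), and their summed FPKM was 109.6 to 297.5 in the knockout and 296.2 to 979.5 in the control mice. The neutrophil median was -1.23 without control mouse 2 and -1.19 with the length trend removed. Of 11 macrophage markers, 4 were lower and 0 higher (median -0.12), and their sum was 1195 to 1795 in the knockout and 1401 to 2628 in the control mice. With the length trend removed, or without control mouse 2, 2 of the macrophage markers were lower. Their median was then -0.12 and -0.20 respectively. The highest macrophage sum was that of control mouse 2 and the next, 2128, that of control mouse 3, the mice with the highest Mmp12. Of the 11 markers, 2 had their highest value in control mouse 2, Fcgr1 (30.2 FPKM) and Lyz2, which supplied 2044 of its summed 2628 FPKM. Another 5, Adgre1, Csf1r, Mrc1, Cd163 and Itgam, had their lowest value there, and these have the longest transcripts of the list (3.18 to 5.27 kb, against 1.01 to 2.54 kb for the other 6). The summed FPKM of all genes was also highest there (772536, against 521852 to 605508 in the others). Control mice 4 and 2, highest for Timp1 and Mmp13, had the highest neutrophil sums, 979.5 and 943.3. Of the 10 fibroblast markers, 0 were lower and 2, Col1a1 and Col1a2, higher (log2 fold changes 1.10 and 0.75), and 3 with the replicate block. With the length trend removed these were 0.82 and 0.40, the latter with an edgeR unadjusted p of 0.195, and without knockout mouse 3 that of Col1a2 was 0.44. Of the 10 fibroblast markers 3 had a negative log2 fold change, among them Dcn at -0.64 and Dpt at -0.46. Without control mouse 2 Dcn was at -0.24 and Dpt at -0.20. The fibroblast median was 0.34, or 0.17 without control mouse 2 and 0.12 with the length trend removed. The fibroblast sums overlapped, at 4516 to 6358 FPKM in the knockout and 4363 to 6593 in the control mice. Of the 11 keratinocyte, 6 endothelial, 7 skeletal muscle and 5 adipocyte markers, 0 were under this unadjusted limit in either direction. With the replicate block, 3 endothelial markers (Cdh5, Kdr and Vwf) and 1 skeletal muscle marker (Myh1) were higher in the knockout at that limit, and with the length trend removed 1 adipocyte marker (Adipoq) was. The block also gave 1 macrophage marker, Cd163, as higher. In either direction, 1723 of the 17124 genes were under that limit with the block and 1489 with the length trend removed. No marker of these lists was at 0 in all mice, and their part in the results was not tested.

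For the rest of the family, most genes were close to 0 in log2 fold change. Of 17 other MMP and TIMP genes 14 were tested, and 3 were lower at an edgeR unadjusted p under 0.05 and 0 higher (median log2 fold change 0.07). Over all genes 5.91% were lower and 2.45% higher. The median was 0.015 without control mouse 2 and 0.012 with the length trend removed, and 2 genes were then lower. Mmp8, the neutrophil collagenase and also one of the 12 neutrophil markers, was at 1.21 ± 0.54 FPKM in the knockout and 2.81 ± 1.46 in the control mice (log2 fold change -1.41, SE 0.44, edgeR unadjusted p = 0.0102). Mmp27 was at 11.2 ± 1.74 and 14.4 ± 2.90 FPKM (edgeR log2 fold change -0.56, unadjusted p = 0.0437). Without control mouse 2 the log2 fold change of Mmp27 was -0.36. Its edgeR unadjusted p was 0.0973 without that mouse, 0.0914 with the replicate block and 0.0543 with the length trend removed. Mmp8 and Mmp27 lie in the same cluster. Mmp1a, an interstitial collagenase gene in the same cluster, had 0 to 1 counts in the knockout and 0 to 11 in the control mice, too few to set a size. Timp2, the inhibitor that takes part with Mmp14 in activating pro-MMP-2, was at 185.5 ± 37.4 and 141.8 ± 45.5 FPKM (log2 fold change 0.27, edgeR unadjusted p = 0.250), and its log2 fold change was 0.12 without control mouse 2, its lowest mouse, and 0.14 with the length trend removed. Of the remaining genes whose mean FPKM reached 1, Mmp11, Mmp15, Mmp23, Mmp25, Mmp28 and Timp4 had log2 fold changes of 0.06 to 0.50 and Mmp24 had -0.05, all with an unadjusted p over 0.05 in edgeR. Without control mouse 2 these 7 ranged from -0.07 to 0.24, and with the length trend removed from -0.34 to 0.37.

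The genes that activate MMPs or hold them at the cell surface were also measured. Of these 20 genes, 4 were lower and 1 higher at an edgeR unadjusted p under 0.05 (median log2 fold change 0.03), and without control mouse 2 it was 2 lower and 1 higher. With all mice, 5.91% of all genes tested were lower and 2.45% higher. Serpinb2, an inhibitor of plasminogen activators, was at 66.8 ± 9.86 FPKM in the knockout and 104.8 ± 28.3 in the control mice (edgeR log2 fold change -0.86, SE 0.27, unadjusted p = 0.0107). It was lower in 4 of 4 pairs of same-numbered mice. Elane, neutrophil elastase, was near the floor, with mean FPKM of 0.12 and 0.365. Pcsk5, a proprotein convertase, was at 4.16 ± 0.77 and 2.39 ± 1.19 FPKM (log2 fold change 0.67, or 0.44 without control mouse 2). Reck, a membrane-anchored MMP inhibitor, was at 14.2 ± 1.93 and 10.4 ± 3.25 FPKM (log2 fold change 0.32, edgeR unadjusted p = 0.109), with 0.19 without control mouse 2 and 0.10 with the length trend removed. Of 18 genes of the related ADAM and ADAMTS proteases, 0 were lower and 1, Adamts12, higher (log2 fold change 0.85, edgeR unadjusted p = 0.0193). With the length trend removed Adamts12 was at 0.37 (edgeR unadjusted p = 0.172), and 0 genes of that list were then under 0.05, while with the replicate block 2 were, Adamts12 and Adamts14. Adamts14 had a log2 fold change of 0.45 (0.24 without control mouse 2), Adam8 of -0.25 and Adamts4 of -0.06. With 1 mouse left out, Adam8 ranged from -0.46 (without knockout mouse 4) to -0.03 (without control mouse 4) and Adamts4 from -0.44 (without knockout mouse 2) to 0.20 (without knockout mouse 1). The ADAM and ADAMTS list had a median log2 fold change of 0.31, and of 0.11 with the length trend removed.

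Cytokines that are known inducers of MMP genes had the lowest median of the 4 related lists. Of 10 such genes, 5 were lower and 0 higher at an edgeR unadjusted p under 0.05, and the median log2 fold change was -1.05. Over all genes 5.91% were lower and 2.45% higher. The median of the 10 was -0.73 without control mouse 2 and -0.84 with the length trend removed, with the same 5 lower. Il1b, interleukin-1 beta, was at 13.0, 38.0, 22.4 and 58.6 FPKM in the knockout mice. It was at 89.9, 197.6, 57.1 and 110.5 FPKM in the control mice. Knockout mouse 4, which was also the knockout mouse with the highest Mmp13 and Timp1, exceeded control mouse 3 by a small margin, and the log2 fold change was -2.06 (SE 0.56, edgeR unadjusted p = 0.00493) or -1.43 without control mouse 2. Il1a, interleukin-1 alpha, did not overlap between the groups, at 14.5 ± 1.26 and 22.1 ± 3.39 FPKM (SD, n = 4, log2 fold change -0.81, exact permutation p = 0.0286). That permutation p was 0.388 after adjustment over 15970 genes, of which 1.92% were lower in the knockout without overlap. Without control mouse 2 the log2 fold change of Il1a was -0.55. Tgfa and Tgfb1, which encode growth factors, had log2 fold changes of 0.41 and 0.11 with an edgeR unadjusted p of 0.167 and 0.617, and without control mouse 2 they were 0.20 and -0.05. As for the 10 genes themselves, 0 genes of these lists passed the adjusted threshold.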

How the data were processed

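Cheek-skin RNA of 8 mice (4 TBX20fl/fl;K14-Cre, 4 TBX20fl/fl, grouped by the deposited labels and each library taken as 1 mouse) was sequenced after oligo(dT) selection as single-end 50-base reads. The authors filtered reads with SOAPnuke and aligned them with HISAT. Counts as deposited are estimated counts that are not scaled, and 69.0% of those above 0 are not whole. The counting program, its strand setting and its annotation are not given in the sources used here. The deposited FPKM values were made by the authors with the Dr. Tom platform. A further 16 per-sample columns, 40 columns of group means and 51 columns of the authors' own fold changes, p-values and q-values for 17 comparisons were not used.

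After rounding, the 17124 genes whose counts summed to 10 or more were compared between genotypes in edgeR 4.0.16 (quasi-likelihood test, TMM, R 4.3.3), adjusted by Benjamini-Hochberg with a threshold of 0.05. FPKM means were compared by two-sided exact permutation over 70 assignments (smallest p 0.0286). Alternatives were DESeq2 1.42.0, limma 3.58.1 on log2(FPKM + 1), other scalings and filters, a transcript length trend (lowess) removed per mouse, a block for the replicate number, and omission of each mouse in turn. Where libraries were not separate mice, p-values measure only the spread between these samples. The scripts were tested on simulated data. Totals of 16056282 to 19880654 counts put the floor of 3 counts at 0.151 to 0.187 CPM, which covers counting error only.

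Titles carry replicate numbers 1 to 4 in each group. Deviations of same-numbered mice from their group means correlated at 0.41, 0.32, 0.33 and 0.16 (13157 genes, other pairs -0.09 on average), so the numbers, which come from the labels, were taken to pair the mice. The 10 genes and the lists were chosen with earlier results of these data known. Named genes were the 10 genes, Tbx20, the other MMP and TIMP genes whose mean FPKM reached 1, the 2 genes with the smallest p in each direction of each related list, and the 3 genes most like each of the 10. Markers were also named where control mouse 2 held their highest or lowest value, or where an alternative fit put them under the unadjusted limit. Overlapping genes and genes of the chromosome 9 cluster were named by position. Promoters are from RefSeq and positions from GENCODE on GRCm38.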

Additional observations from a re-analysis of the deposited data

Results flagged for a closer look

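Of 40 groups of 4 mice checked over the MMP and TIMP genes, 3 held a mouse far from the others, where chance gives about 1 in 20 groups, or 2. Mmp13 in control mouse 4 was at 10.72 FPKM against 3.43 to 4.53 in the other control mice. Timp2 in control mouse 2 was at 73.59 FPKM against 163.15 to 166.57 in the other control mice. Mmp24 in knockout mouse 2 was at 1.69 FPKM against 2.03 to 2.10 in the other knockout mice.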

How the results depend on the processing

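The 10 genes gave 179 log2 fold changes under the alternatives, of which 165 kept their direction and 14 reversed, and 0 passed the adjusted threshold. DESeq2 passed 10 genes of the whole table where edgeR passed 0. Mmp9 (main -0.0022) reversed to 0.11 with the replicate block, 0.0318 with the block and the length trend removed, and 0.20 with limma, and ranged from -0.23 to 0.45 with 1 mouse left out. Mmp19 (main -0.05) was 0.13 with limma and -0.25 to 0.26 with 1 mouse left out. Timp3 (main 0.16) was -0.11 with the length trend removed, -0.0898 with the replicate block added, and -0.0129 with the trend removed and without control mouse 2, an alternative chosen after seeing the data. For the 10 genes the replicate block changed no other direction and no call. With the block 6.54% and with the length trend removed 5.17% of all genes were lower at an unadjusted p under 0.05. Groups without overlap numbered 1 by FPKM (Mmp12) and 2 by TMM-scaled CPM (Mmp12 and Mmp13). They numbered 0 by FPKM relative to each mouse's summed FPKM (chosen after seeing the data), and 1 to 4 with 1 mouse left out. Mmp12 is in each of these last counts by construction, since leaving out a mouse cannot make separated groups overlap. Over all genes the shares without overlap were 3.33% lower and 3.77% higher by CPM, and 2.34% to 6.08% lower and 5.65% to 12.2% higher with 1 mouse left out. Without control mouse 3 the count was 4, without knockout mouse 4 it was 3 and without knockout mouse 1 it was 2. The causes were not tested. The low counts of Mmp10 limit its precision.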
